A study of Mus musculus with 20 samples.

Results

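The genes described here are 10 genes of the integrated stress response: the transcription factors Atf4, Atf5 and Ddit3, the regulators Trib3 and Nupr1, the amino acid and glutathione enzymes Asns and Chac1, the mTORC1 inhibitors Sesn2 and Ddit4, and the secreted protein Gdf15. They were chosen by name, with earlier results of these data known, and all 10 were found among the 15956 genes listed in the counts. RNA was sequenced from the left ventricle of 20 male mice, 5 on each of 4 diets. NP mice ate a diet of normal protein content and LP mice a low-protein diet, HF mice ate a high-fat diet with the protein content of NP, and HF + LP mice ate the high-fat diet with the protein content of LP. Casein was the protein that was varied, with carbohydrate adjusted against it. All mice are labelled as 18 months old, whereas the study's methods place tissue collection at a younger age, and no strain name is given in the sources used here. By their labels, the HF mice weighed 58.9 ± 1.76 g and the HF + LP mice 48.6 ± 5.93 g, whereas NP mice weighed 43.0 ± 7.82 g and LP mice 32.6 ± 2.69 g (SD, n = 5).

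The integrated stress response is a pathway in which kinases that sense amino acid shortage, unfolded protein in the endoplasmic reticulum, heme shortage, mitochondrial defects, or viral RNA phosphorylate the translation factor eIF2α. General translation then slows while the Atf4 messenger RNA, which carries upstream open reading frames, is translated more. The ATF4 protein binds C/EBP-ATF response elements and raises the transcription of genes for amino acid synthesis and uptake, of further transcription factors, and of secreted signals such as GDF15. ATF4 itself is therefore regulated largely at the level of its protein, which was not measured here. In the heart, the pathway is known from mitochondrial cardiomyopathies, in which the one-carbon enzyme MTHFD2, asparagine synthetase, and GDF15 are among its usual readouts.

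To show the DNA element through which ATF4 acts, the letters TGATGNAA were searched on both strands of RefSeq promoters on GRCm38.p6, each covering 250 bases before to 50 bases after a transcription start. All 10 genes had a promoter in the collection, and 4 of them held the letters, compared to 4.51% of 27025 genes and 3.97% of 32851 promoters. Of these matches, 3 lie before the RefSeq start and are shown 5′ to 3′ on the strand of the gene, with the matched letters in capitals.
Chac1: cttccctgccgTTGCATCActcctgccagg
Asns: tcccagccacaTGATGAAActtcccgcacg
Nupr1: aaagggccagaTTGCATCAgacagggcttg
The Chac1 match begins 193 bases before the start, in a window at chr2:119351038-119351067 on the plus strand that lies outside the gene in GENCODE M21. The Asns match begins 23 bases before the start at chr6:7693214-7693243 on the minus strand, and the Nupr1 match begins 110 bases before the start at chr7:126625562-126625591 on the minus strand. Both of these windows overlap an exon of the gene in GENCODE M21, whose transcripts start at other positions than the RefSeq entry. In Chac1 and Nupr1 the element reads on the strand opposite to the gene, and in Asns it reads on the strand of the gene. The Trib3 match begins 14 bases after the RefSeq start. The promoters of Atf4, Atf5, Ddit3, Sesn2, Ddit4, and Gdf15 do not hold these letters within the window searched. The letters mark a sequence match, and binding of ATF4 was not measured.

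QuantSeq libraries hold reads from the 3′ end of transcripts, so that counts do not grow with transcript length and levels can be compared between genes. Total counts were 12559607 to 23331907 per mouse. LP mouse 13 stood apart, with a median correlation of 0.908 with the other LP libraries, compared to 0.944 to 0.979 for all other mice within their groups. Ventricular tissue was checked by 8 cardiomyocyte markers, which took 35096 to 56333 CPM (counts scaled to a common library size) in sum. Atrial markers spanned 127 to 15540 CPM, so that some samples held more atrial transcripts than others, with medians of 246 CPM in HF, 1312 in NP, 1731 in LP, and 203 CPM in HF + LP (two-sided exact permutation test of the sum, p = 0.635 for HF with NP, 0.317 for LP with NP, 0.587 for HF + LP with HF, and 0.262 for HF + LP with LP). Transcripts of mitochondrial DNA took 38.1% to 39.8% of the counts in HF mice, 41.3% to 47.1% in NP mice, 35.4% to 44.5% in LP mice, and 38.5% to 47.2% in HF + LP mice.

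Averaged over the 20 mice, Atf4 was the most abundant of the 10 genes at 85.4 CPM, followed by Atf5 at 38.8, Ddit4 at 35.3, and Ddit3 at 25.9 CPM. Nupr1 (7.20 CPM), Gdf15 (5.81 CPM), Trib3 (3.27 CPM), Chac1 (2.94 CPM), Asns (2.27 CPM), and Sesn2 (1.26 CPM) were scarce transcripts in this tissue. The lowest count of any of them in a library was 7, for Sesn2 in an HF + LP mouse. All 10 genes passed the filter on low counts and were tested among 13991 genes. The threshold for a call was an adjusted p of 0.01 together with more than 50 normalized counts on average. Chac1, Asns, and Sesn2 had mean normalized counts of 49.9, 38.6, and 21.3 and could not be called at any p-value. For this reason, genes at an unadjusted p under 0.05 were counted as well, beside the share of all tested genes that reached the same p in the same direction.

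In HF compared to NP mice, which shows the response to the high-fat diet at normal protein, all 10 genes had a positive log2 fold change, with a median of 0.51, compared to −0.00 over all tested genes. Gdf15 (2.89-fold), Asns (1.98-fold), Nupr1 (1.51-fold), Ddit4 (1.50-fold), and Atf5 (1.42-fold) were higher in HF at an unadjusted p under 0.05. These 5 of 10 genes stood beside 5.17% of all tested genes that were higher at that p, and none of the 10 stood beside the 7.91% that were lower. The genes were chosen with earlier results of these data known, so such shares, here and below, are no independent test. The quasi-likelihood test of edgeR, with Benjamini-Hochberg adjustment over all tested genes, called none of the 10 and 0.264% of tested genes, and the smallest adjusted p of the 10 was 0.0578, for Gdf15. DESeq2 called 1 of the 10, Gdf15, with an adjusted p of 0.00653, and called 1.00% of the 15803 genes that it tested. Without HF mouse 2, the count at an unadjusted p under 0.05 was 3 (Asns, Nupr1, and Gdf15), and the log2 fold changes of Ddit3 and Chac1 were −0.13 and −0.05.

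**Figure D1:**
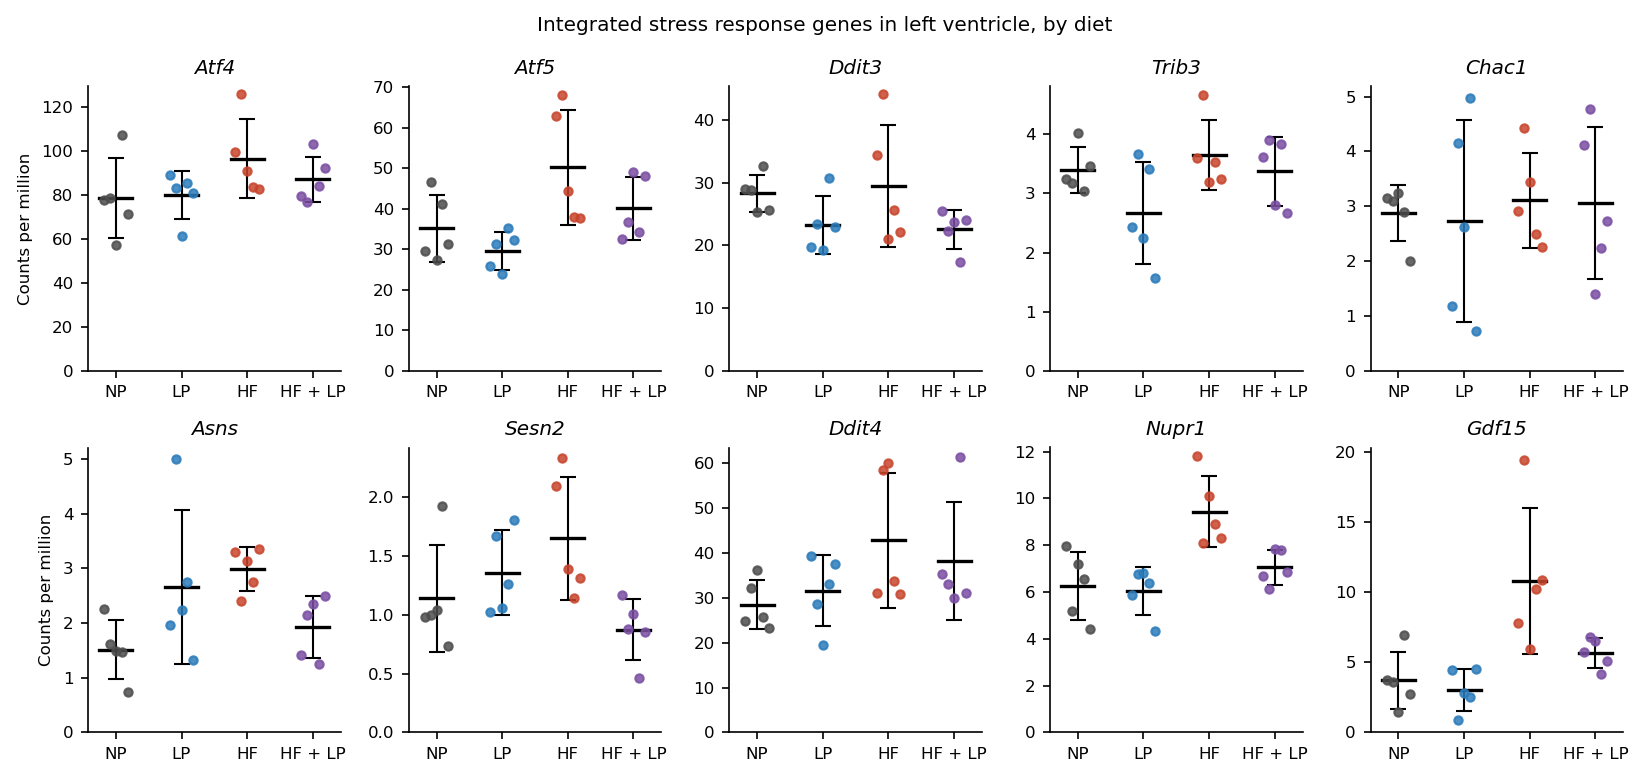
The level in CPM of the 10 integrated stress response genes in each mouse (points), by diet, with the mean (horizontal line) and SD (error bar) of 5 mice. Every HF mouse lies above every NP mouse for Asns and Nupr1, and HF mouse 2 is the highest of all 20 mice for 6 of the genes.

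In HF + LP compared to HF mice, which shows the response to protein restriction on the high-fat diet, all 10 genes had a negative log2 fold change, with a median of −0.35, compared to 0.02 over all tested genes. Sesn2, Nupr1, Gdf15, and Ddit3 were lower in HF + LP at an unadjusted p under 0.05. These 4 genes stood beside 2.43% of tested genes that were lower at that p, and none of the 10 stood beside the 2.41% that were higher. No member was called by edgeR or by DESeq2, and edgeR called 0% of the tested genes in this comparison, with a smallest adjusted p of 0.0841 over the whole table. The HF mice enter both this comparison and that of HF with NP, so a mouse that is high in HF moves both, in opposite directions. Without HF mouse 2, Gdf15 (−0.62) and Ddit3 (−0.19) were no longer at an unadjusted p under 0.05, Asns (−0.69) was, and the log2 fold change of Chac1 was 0.14.

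**Figure D2:**
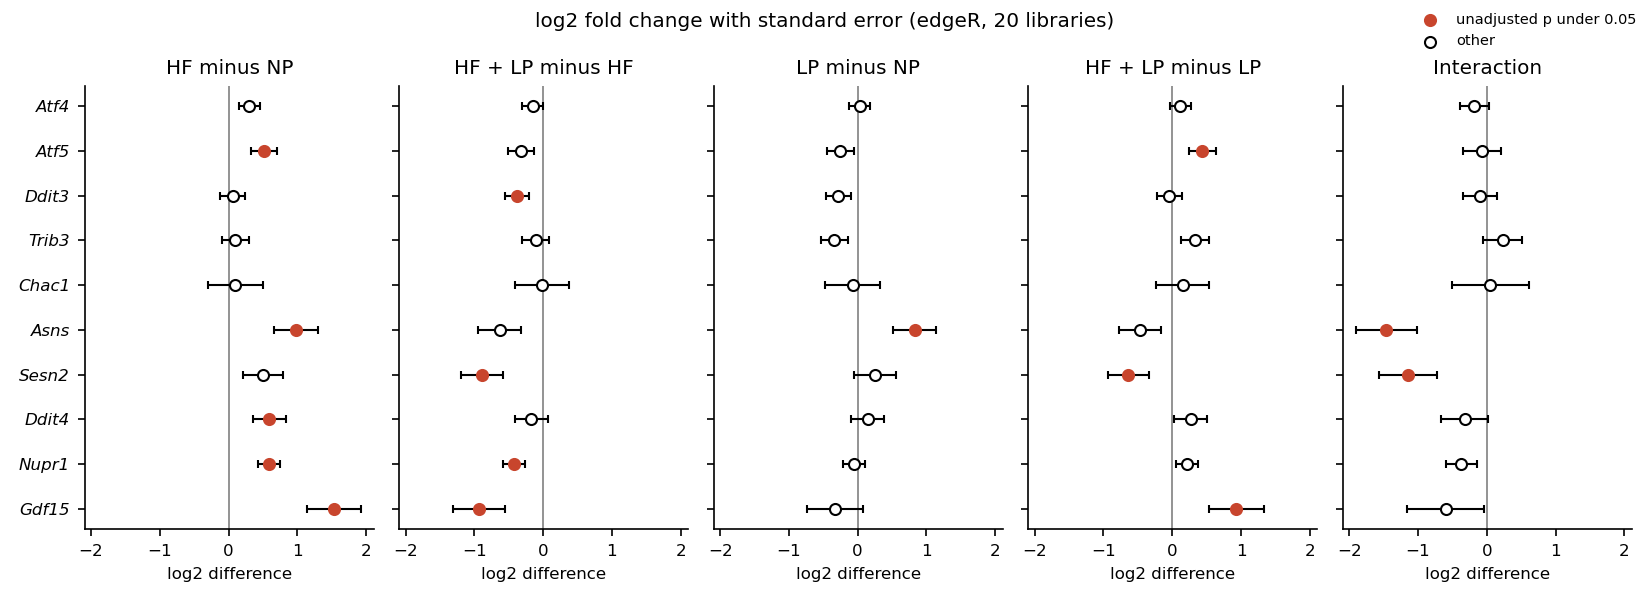
The log2 fold change of each gene (point) with its standard error (bar) in the 4 diet comparisons and in the fat by protein interaction, from edgeR fitted to 20 libraries. Filled points mark an unadjusted p under 0.05, of which 5 lie to the right in HF minus NP and 4 to the left in HF + LP minus HF, and no point passed the adjusted threshold.

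Markers of some other cell types moved with the same comparisons. The summed level of 9 macrophage markers was 339 to 449 CPM in NP, 256 to 601 in LP, 453 to 595 in HF, and 341 to 475 CPM in HF + LP. All 9 were higher in HF than in NP, 6 of them at an unadjusted p under 0.05 (p = 0.00794 for the summed level by an exact permutation test, two-sided, which is the lowest value possible with 5 mice per diet), and all 9 were lower in HF + LP than in HF (p = 0.0159, exact). Fibroblast markers were 1000 to 1217 CPM in NP, 1133 to 1469 in HF, and 952 to 1227 CPM in HF + LP (p = 0.0476 for HF with NP and 0.0238 for HF + LP with HF, exact). Cardiomyocyte markers were 47696 to 56333 CPM in NP, 38666 to 48923 in HF, and 37848 to 54540 CPM in HF + LP (p = 0.0159 for HF with NP and 0.294 for HF + LP with HF, exact). Of 7 pericyte and smooth muscle markers, 6 were lower in HF than in NP, 3 of them at an unadjusted p under 0.05 (511 to 646 CPM in HF and 619 to 669 in NP, p = 0.0714, exact), and 2 of 7 were higher in HF + LP than in HF at that p (582 to 793 CPM in HF + LP, p = 0.119, exact). In HF + LP compared to LP, all 6 adipocyte markers were lower at an unadjusted p under 0.05, with a sum of 8.46 to 468 CPM in LP and 1.51 to 18.4 CPM in HF + LP (p = 0.0635, exact). Of 7 endothelial markers, 5 were higher in HF than in NP, none at an unadjusted p under 0.05 (p = 0.389 for the sum, exact). In HF + LP compared to HF, 4 were higher and 1 was lower at that p (p = 0.579, exact). All 5 erythroid markers were higher in HF than in NP, 1 of them at that p (p = 0.175, exact), and all 5 were higher in HF + LP than in HF (p = 0.587, exact). No marker of these lists was at 0. The part of these cell types in the values of Gdf15, Nupr1, Asns, Atf5, Ddit4, and the other genes was not tested. In bulk tissue, fewer cells of a type and less RNA per cell cannot be told apart.

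Protein restriction without high fat, in LP compared to NP mice, gave a median log2 fold change of −0.06 over the 10 genes, with 4 positive and 6 negative values. Asns was higher at an unadjusted p under 0.05, beside 5.02% of tested genes, and none was lower, beside 2.21%. All 6 adipocyte, all 6 atrial, and all 5 erythroid markers were higher in LP than in NP, of which 2, 1, and 1 were at an unadjusted p under 0.05, and their part in the value of Asns was not tested. In HF + LP compared to LP mice, which shows the high-fat diet at low protein, the median was 0.19. Gdf15 and Atf5 were higher at an unadjusted p under 0.05, beside 6.26% of tested genes, and Sesn2 was lower, beside 9.66%. The adipocyte markers moved with this comparison, as given above. All 6 atrial markers were lower as well, 1 of them at an unadjusted p under 0.05. Directions were mixed in the pericyte and smooth muscle, cardiomyocyte, and macrophage lists, with 3 of 7, 6 of 8, and 4 of 9 markers higher. At that p, 2 of 7 and 1 of 8 were lower in the first 2 lists, and 1 of 9 was higher in the last. The summed levels of these lists had p = 0.516, 0.452, and 0.857 (exact permutation test). The part of these markers in the values was not tested. No member was called in either comparison by edgeR or DESeq2, beside 0% of tested genes called by edgeR in LP compared to NP and 0.100% in HF + LP compared to LP.

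The values of the transcription factors come first. Atf4, the central factor of the response, lies on chromosome 15 of GRCm38 from 80255184 to 80257541. Its level was 77.6, 78.5, 57.2, 107, and 71.4 CPM in NP mice 4, 5, 3, 6, and 8, and 99.4, 126, 90.6, 83.6, and 82.5 CPM in HF mice 1 to 5. LP mice ranged from 61.4 to 89.0 CPM and HF + LP mice from 76.9 to 103 CPM. The groups overlapped, and NP mouse 6 lay above every HF mouse except mouse 2. The log2 fold change of HF over NP was 0.30 ± 0.15 (standard error), with a 95% interval from −0.02 to 0.62 (edgeR adjusted p = 0.424). It was 0.44 without NP mouse 6 and 0.35 without HF mouse 4 or 5, in each case at an unadjusted p under 0.05, as also with RLE size factors and with DESeq2 (0.32 in both), and it was 0.18 without HF mouse 2. Between HF + LP and HF it was −0.15, with an interval from −0.47 to 0.17, and −0.03 without HF mouse 2.

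Atf5, a related factor that is under the same translational control and acts on mitochondrial stress genes, was 62.8, 68.1, 44.4, 38.0, and 37.7 CPM in HF mice 1 to 5, and 29.7, 46.5, 27.3, 41.1, and 31.4 CPM in NP mice 4, 5, 3, 6, and 8. LP mice ranged from 23.9 to 35.2 CPM and HF + LP mice from 32.6 to 49.0 CPM. HF mice 1 and 2 lay above every mouse of the other diets, while the remaining HF mice lay within the NP range. Between HF and NP the log2 fold change was 0.51 ± 0.19, with an interval from 0.11 to 0.91 (edgeR adjusted p = 0.223), and without HF mouse 2 it was 0.38 and no longer at an unadjusted p under 0.05. The high-fat diet at low protein gave 0.44 ± 0.19 (edgeR adjusted p = 0.267), with 3 of 5 HF + LP mice above every LP mouse. Leaving out LP mouse 2 or 20 or HF + LP mouse 3 or 5 brought that value to between 0.36 and 0.39, no longer at an unadjusted p under 0.05.

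Ddit3 encodes CHOP, a factor linked to cell death in prolonged stress. It was 34.5, 44.1, 21.1, 25.6, and 22.2 CPM in HF mice 1 to 5, and 25.5, 22.3, 23.7, 17.4, and 24.1 CPM in HF + LP mice 1 to 5. NP mice ranged from 25.3 to 32.6 CPM and LP mice from 19.3 to 30.8 CPM. HF mice 1 and 2 were the highest of all mice, whereas HF mice 3 and 5 were below every NP mouse, so that the HF group spanned both sides of the NP group. The difference between HF and NP was 0.06 on the log2 scale, and that between HF + LP and HF was −0.38 ± 0.18 (edgeR adjusted p = 0.999). The latter was no longer at an unadjusted p under 0.05 without HF mouse 1 or 2 or HF + LP mouse 2, 4, or 5, with values from −0.40 to −0.19. The same held with only these 2 groups fitted (−0.38) and with the library-name number as a covariate (−0.36). Ddit3 overlaps Mars, a methionyl-tRNA synthetase gene, and the noncoding Gm4189 on the opposite strand, and Atf5 overlaps Il4i1 and Nup62 in the same way. Whether counting used the strand is not given in the sources used here, so the counts of Ddit3 and Atf5 are uncertain to that extent. GENCODE M21 also holds a second protein-coding entry under the name Ddit3 on the same strand, whose reads strand could not separate.

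Nupr1, a stress-induced chromatin regulator on chromosome 7 from 126623249 to 126630861, was the only one of the 10 genes for which every HF mouse lay above every mouse of the other diets. Its level was 11.8, 8.08, 10.1, 8.92, and 8.32 CPM in HF mice 1 to 5, compared to 7.95, 5.18, 7.20, 6.54, and 4.40 CPM in NP mice 4, 5, 3, 6, and 8. It was 6.69, 6.11, 7.85, 7.79, and 6.87 CPM in HF + LP mice 1 to 5, and 4.35 to 6.81 CPM in LP mice. The HF group thus overlapped none of the others, although its lowest value, 8.08 CPM, was close to the highest NP value, 7.95 CPM. Nupr1 differed by a log2 fold change of 0.59 ± 0.16 for HF over NP, with an interval from 0.25 to 0.93 (edgeR adjusted p = 0.0745), and of −0.42 ± 0.16 for HF + LP over HF, with an interval from −0.75 to −0.08 (edgeR adjusted p = 0.754). Groups that did not overlap, with HF above NP, were seen for 2 of the 10 genes, Nupr1 and Asns, and for 2.07% of all tested genes. Groups that did not overlap, with HF + LP below HF, were seen for Nupr1 among the 10 genes and for 0.636% of all tested genes. The share of all tested genes with HF above every other diet was not computed. Without HF mouse 1, the difference of HF + LP from HF was −0.33 and no longer at an unadjusted p under 0.05.

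Trib3, a pseudokinase that restrains ATF4 and CHOP, was not at an unadjusted p under 0.05 in any of the 4 diet comparisons. It averaged 3.39 ± 0.387 CPM in NP, 2.67 ± 0.867 CPM in LP, 3.65 ± 0.593 CPM in HF, and 3.37 ± 0.584 CPM in HF + LP (SD, n = 5). The interval of the difference of HF from NP was −0.31 to 0.51 on the log2 scale, and that of HF + LP from HF was −0.52 to 0.30. In LP compared to NP, the log2 fold change was −0.34, and it ran from −0.50 to −0.20 as each mouse was left out. Without LP mouse 13 it was −0.50 and at an unadjusted p under 0.05 (edgeR adjusted p = 0.689). In HF + LP compared to LP it was 0.33, with a range from 0.19 to 0.49 as each mouse was left out. Without LP mouse 13 that value was 0.49 and at an unadjusted p under 0.05 (edgeR adjusted p = 0.313).

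Asns, asparagine synthetase, converts aspartate to asparagine and lies on chromosome 6 from 7675169 to 7693254. It was 3.30, 2.41, 3.1, 2.75, and 3.35 CPM in HF mice 1 to 5, compared to 2.25, 1.62, 1.49, 1.47, and 0.733 CPM in NP mice 4, 5, 3, 6, and 8. It was 1.96, 5.00, 2.24, 2.75, and 1.33 CPM in LP mice 2, 13, 20, 15, and 5, and 1.41, 2.14, 2.35, 1.25, and 2.49 CPM in HF + LP mice 1 to 5. All HF mice were above all NP mice, 4 of 5 HF + LP mice lay below every HF mouse, and LP mouse 13 had the highest level of all 20 mice. Asns had a log2 fold change of 0.98 ± 0.32 for HF over NP, with an interval from 0.33 to 1.64 (edgeR adjusted p = 0.134), and of −0.63 ± 0.31 for HF + LP over HF, with an interval from −1.27 to 0.01 (edgeR adjusted p = 0.999). The latter lay close to the unadjusted threshold of 0.05 and was under it with RLE size factors or DESeq2 (−0.65 in both), with at least 10 counts in every library or only these 2 groups fitted (−0.63 in both), and without HF mouse 2 (−0.69) or HF + LP mouse 3 or 5 (−0.74 in both). For LP over NP it was 0.83 ± 0.31 (edgeR adjusted p = 0.609), and without LP mouse 13 it was 0.44 and no longer at an unadjusted p under 0.05. These levels rest on 11 to 135 counts per library.

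Chac1, which degrades glutathione, varied more among mice of a diet than between diets. It ranged from 2.00 to 3.24 CPM in NP, 0.725 to 4.98 in LP, 2.26 to 4.43 in HF, and 1.40 to 4.78 CPM in HF + LP. The difference of HF from NP was 0.10 on the log2 scale with an interval from −0.72 to 0.93, and that of HF + LP from HF was −0.02 with an interval from −0.84 to 0.80. Both intervals are wide on either side of 0.

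Sesn2 and Ddit4 encode stress-induced inhibitors of the growth kinase complex mTORC1, sestrin 2 acting as a leucine sensor and DDIT4 (REDD1) responding also to hypoxia and glucocorticoids. Sesn2 was 1.17, 0.881, 1.01, 0.462, and 0.851 CPM in HF + LP mice 1 to 5, compared to 2.10, 2.33, 1.39, 1.14, and 1.31 CPM in HF mice 1 to 5. NP mice were at 0.985, 1.00, 1.04, 1.93, and 0.733 CPM in mice 4, 5, 3, 6, and 8, and LP mice between 1.02 and 1.81 CPM. HF + LP had the lowest mean of the 4 diets (0.874 ± 0.262 CPM, SD, n = 5), with 4 of 5 mice below every HF mouse and 4 of 5 below every LP mouse. For HF + LP over HF the log2 fold change was −0.89 ± 0.30, with an interval from −1.52 to −0.27 (edgeR adjusted p = 0.578), and for HF + LP over LP it was −0.64 ± 0.30, with an interval from −1.27 to −0.01 (edgeR adjusted p = 0.304). HF + LP libraries held 7 to 19 Sesn2 counts, so counting error is a large part of these values. The difference from LP was no longer at an unadjusted p under 0.05 without LP mouse 5, 13, or 15 or HF + LP mouse 2, 3, 4, or 5, with values from −0.68 to −0.48. The same held with DESeq2 (−0.65) and with the library-name number as a covariate (−0.60). Sesn2 also overlaps Gm12981, a noncoding gene annotated on the same strand, and the reads of both may not be separable.

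Ddit4 was 31.1, 58.5, 60.1, 33.7, and 30.8 CPM in HF mice 1 to 5, and 24.9, 32.1, 36.3, 25.7, and 23.3 CPM in NP mice 4, 5, 3, 6, and 8. In HF + LP mice 1 to 5 it was 35.4, 33.1, 29.9, 61.4, and 31.1 CPM, and in LP mice it ranged from 19.5 to 39.3 CPM. HF mice 2 and 3 and HF + LP mouse 4 lay far above all remaining mice, and the other mice of HF and HF + LP overlapped NP and LP. HF exceeded NP by a log2 fold change of 0.59 ± 0.24, with an interval from 0.09 to 1.09 (edgeR adjusted p = 0.277). It was 0.45 without HF mouse 2 and 0.43 without HF mouse 3, in both cases no longer at an unadjusted p under 0.05, as also without NP mouse 4 (0.54) or NP mouse 8 (0.53).

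Gdf15, a hormone secreted by stressed cells that reduces appetite through a hindbrain receptor, lies on chromosome 8 from 70629393 to 70632456 and had the largest fold change of the 10 genes in HF compared to NP. It was 7.79, 19.4, 5.92, 10.2, and 10.9 CPM in HF mice 1 to 5, compared to 3.73, 3.63, 1.49, 6.95, and 2.73 CPM in NP mice 4, 5, 3, 6, and 8. It was 5.77, 6.80, 6.50, 4.16, and 5.10 CPM in HF + LP mice 1 to 5, and 4.47, 0.852, 2.79, 2.53, and 4.53 CPM in LP mice 2, 13, 20, 15, and 5. Of the HF mice, 4 of 5 lay above every NP mouse and all lay above every LP mouse, and the HF + LP mice lay between, with 3 of 5 below every HF mouse and 4 of 5 above every LP mouse. The log2 fold change of HF over NP was 1.53 ± 0.39, with an interval from 0.71 to 2.35 (edgeR adjusted p = 0.0578), and 0.286% of all tested genes had a value as high or higher. It was −0.93 ± 0.38 for HF + LP over HF, with an interval from −1.73 to −0.13 (edgeR adjusted p = 0.840), and 0.93 ± 0.40 for HF + LP over LP, with an interval from 0.09 to 1.76 (edgeR adjusted p = 0.260). Without HF mouse 2, Gdf15 was still 1.22 higher on the log2 scale in HF than in NP (edgeR adjusted p = 0.149), whereas the difference of HF + LP from HF was −0.62 without that mouse and −0.84 without HF + LP mouse 4, in both cases no longer at an unadjusted p under 0.05. The difference of HF + LP from LP was likewise no longer so without LP mouse 13 (0.66), 15 (0.88), or 20 (0.89), or HF + LP mouse 2 (0.86) or 3 (0.89).

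The fat by protein interaction asks whether the effect of the high-fat diet differed between low and normal protein. For Asns, the log2 fold change of high fat was 0.98 at normal protein and −0.47 at low protein, a difference of −1.46 ± 0.44, with an interval from −2.38 to −0.54 (edgeR adjusted p = 0.614). The value at low protein was not at an unadjusted p under 0.05 (edgeR adjusted p = 0.460) and rested largely on LP mouse 13, without which it was −0.09. With the animal number as a replicate block it was 0.51. HF + LP and LP share only animal numbers 2 and 5, so the blocked value rests on the mice with those numbers. For Sesn2, these values were 0.50 and −0.64, a difference of −1.15 ± 0.42, with an interval from −2.02 to −0.27 (edgeR adjusted p = 0.668). The Sesn2 value at normal protein was 0.80 without NP mouse 6, then at an unadjusted p under 0.05, and 0.35 without HF mouse 2. These 2 genes were the members at an unadjusted p under 0.05, beside 4.31% of tested genes with a negative difference at that p, and no member had a positive one, beside 2.86%. No member was called by edgeR or DESeq2, and edgeR called 0% of tested genes for the interaction. Without LP mouse 13, the Asns difference was −1.07, still at an unadjusted p under 0.05. With the replicate block, which these labels do not show to be a true pairing, it was −0.45 and no longer so, whereas Chac1 (2.15) and Trib3 (0.87) then were. For Gdf15 the difference was −0.60, with an interval from −1.76 to 0.56, so a smaller or an equal effect of fat at low protein cannot be told apart. As each mouse was left out it ran from −0.98 to −0.29, the latter without HF mouse 2.

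Upstream of ATF4, 18 genes for eIF2 kinases, their regulators, eIF2 phosphatase subunits, eIF2, and its exchange factor eIF2B were tested. In HF compared to NP, 2 of 18 were higher at an unadjusted p under 0.05, beside 5.17% of all tested genes, none was lower, beside 7.91%, none was called, and the median log2 fold change was 0.10. A count of 2 is near that background. The 2 genes were Impact, which restrains the amino acid-sensing kinase GCN2 (0.39 ± 0.16, edgeR adjusted p = 0.268), and Eif2ak2, the double-stranded RNA-activated kinase PKR and an interferon-induced gene (0.46 ± 0.20, adjusted p = 0.326). Eif2ak2 was also lower in HF + LP than in HF (−0.65 ± 0.20, edgeR adjusted p = 0.473), as 1 of 18, beside 2.43% of all tested genes. No gene of this list was at an unadjusted p under 0.05 in LP compared to NP, beside 5.02% of all tested genes higher and 2.21% lower. Kinase activity and eIF2α phosphorylation are not visible in these counts.

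Of 37 other genes known as ATF4 targets, 33 were tested, and 1 was called in HF compared to NP, beside 0.264% of all tested genes. Mthfd2, the mitochondrial one-carbon enzyme, rose by 1.49 ± 0.20 on the log2 scale (edgeR adjusted p = 0.000527). Atf3, a stress-induced repressor (1.1 ± 0.29, edgeR adjusted p = 0.0621), and Cebpg, a dimer partner of ATF4 (0.50 ± 0.19, adjusted p = 0.242), were also higher at an unadjusted p under 0.05, which makes 3 of 33, beside 5.17% of all tested genes, and none of the 33 was lower, beside 7.91%. The median of the list was 0.12, with values from −0.35 to 1.49, so most of these genes, including the aminoacyl-tRNA synthetases, showed small differences. Between HF + LP and HF, none of the 33 was at an unadjusted p under 0.05, beside 2.41% of all tested genes higher and 2.43% lower, and Mthfd2 had a log2 fold change of −0.36. In HF + LP compared to LP, Mthfd2 (0.74 ± 0.19, edgeR adjusted p = 0.0931) and Lars, the leucyl-tRNA synthetase (0.28 ± 0.12, adjusted p = 0.276), were higher at an unadjusted p under 0.05, and Psph, which completes serine synthesis, was lower (−0.69 ± 0.31, adjusted p = 0.287). These 2 and 1 of 33 stood beside 6.26% and 9.66% of all tested genes and are not above that background. The interaction was −0.75 ± 0.27 for Mthfd2 (edgeR adjusted p = 0.668). Mthfd2 was the 1 of 33 with a negative difference at an unadjusted p under 0.05, beside 4.31% of all tested genes. None had a positive one, beside 2.86%, so this count is not above the background.

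**Figure D3:**
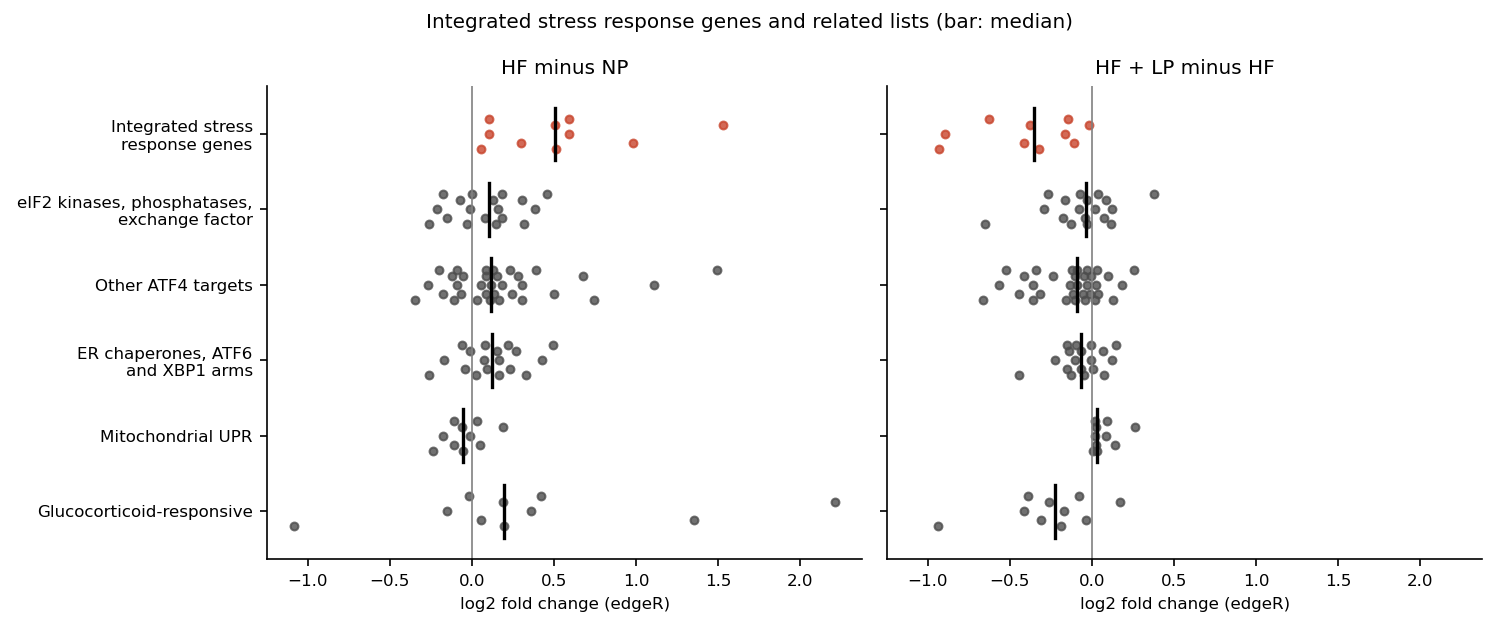
The log2 fold change of each tested gene (points) in HF minus NP and in HF + LP minus HF, for the 10 integrated stress response genes and 5 related lists, with the median of each list (black bar). The medians of the 10 genes are 0.51 and −0.35, and those of the related lists lie between −0.06 and 0.19 in HF minus NP and between −0.23 and 0.03 in HF + LP minus HF.

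The other arms of the protein-folding response were examined in HF compared to NP as well. None of 18 genes for endoplasmic reticulum chaperones and the ATF6 and XBP1 arms was at an unadjusted p under 0.05, and their median was 0.12. Of all tested genes, 5.17% were higher and 7.91% lower at that p. None of 10 genes of the mitochondrial unfolded protein response was at that p either, and their median was −0.06. In the other comparisons, 1 of the 18 genes, Edem1, which acts in the disposal of misfolded glycoproteins, was higher in LP than in NP (1.36 ± 0.48, edgeR adjusted p = 0.568) and lower in HF + LP than in LP (−1.31 ± 0.47, adjusted p = 0.184), both at an unadjusted p under 0.05, with a level of 8.89 ± 10.2 CPM in LP (SD, n = 5). A count of 1 of 18 is near the background of 5.02% higher and 9.66% lower. In HF + LP compared to LP, 3 of the 10 mitochondrial genes were higher at an unadjusted p under 0.05, beside 6.26% of all tested genes, the chaperonins Hspe1 (0.29 ± 0.09, edgeR adjusted p = 0.134) and Hspd1 (0.34 ± 0.11, adjusted p = 0.138) and the protease Clpp (0.27 ± 0.13, adjusted p = 0.312), and none was called. In HF + LP compared to HF, all 10 mitochondrial genes had a positive log2 fold change, from 0.01 to 0.26. Hspd1 alone of them was higher at an unadjusted p under 0.05 (0.26 ± 0.11, edgeR adjusted p = 0.819), beside 2.41% of all tested genes. Because Ddit4 also responds to glucocorticoids, 10 glucocorticoid-responsive genes were examined. In HF compared to NP, the cell-cycle inhibitor Cdkn1a (1.35 ± 0.29, edgeR adjusted p = 0.0222) and the pyruvate dehydrogenase kinase Pdk4 (2.21 ± 0.91, adjusted p = 0.283) were higher at an unadjusted p under 0.05, and the clock gene Per1 was lower (−1.08 ± 0.47, adjusted p = 0.317), and the median was 0.19. The 2 higher and 1 lower of 10 stood beside 5.17% and 7.91% of all tested genes.

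Covariation of the 10 genes among mice of the same diet was examined after removing the diet means, over 45 pairs and 20 mice. Of these pairs, 4 had a Benjamini-Hochberg adjusted permutation p under 0.05. They were Atf4 and Atf5 (r = 0.75, adjusted permutation p = 0.0220, Spearman's rho = 0.79, adjusted p = 0.0153), Atf5 and Ddit3 (r = 0.73, adjusted permutation p = 0.0225, rho = 0.67, adjusted p = 0.0888), Ddit3 and Sesn2 (r = 0.71, adjusted permutation p = 0.0225, rho = 0.75, adjusted p = 0.0328), and Atf4 and Ddit3 (r = 0.62, adjusted permutation p = 0.0332, rho = 0.65, adjusted p = 0.0705). The unadjusted permutation p of r was 0.000490, 0.00131, 0.00150, and 0.00295, and that of rho was 0.000340, 0.00789, 0.00146, and 0.00470, in this order. Trib3 and Chac1 had the highest r, 0.77, but an adjusted permutation p of 0.0555. Gdf15, Nupr1, Asns, and Ddit4 were in none of the 4 pairs, and the median r over the 45 pairs was 0.16.

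Leaving out the 2 mice farthest from the median of the first gene of a pair, r was 0.76 for Atf4 and Atf5, 0.70 for Atf5 and Ddit3, 0.70 for Ddit3 and Sesn2, and 0.65 for Atf4 and Ddit3. The last 3 pairs then no longer passed, with adjusted permutation p of 0.0631, 0.0631, and 0.187. With the number in the library name also centred, r was 0.77, 0.80, 0.67, and 0.64, in the same order. No pair had an adjusted permutation p under 0.05 without HF mouse 2, where the 4 values of r were 0.69, 0.66, 0.67, and 0.49, and 1 pair, Atf4 and Atf5, passed without NP mouse 6, HF mouse 1, or HF mouse 5. HF mouse 2 was the highest of the HF mice for 7 of the 10 genes and the highest of all 20 mice for 6 of them. Body weight within diets was not related to any of the 10 genes at an unadjusted permutation p under 0.05, with r from −0.38 for Sesn2 to 0.32 for Nupr1. As each mouse was left out, r ran from −0.56 to −0.15 for Sesn2, −0.47 to −0.20 for Gdf15, and −0.38 to −0.04 for Atf4. Sesn2 and Gdf15 each passed that p in 1 of these 20 fits, and the lowest adjusted permutation p were 0.333 and 0.351.

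**Figure D4:**
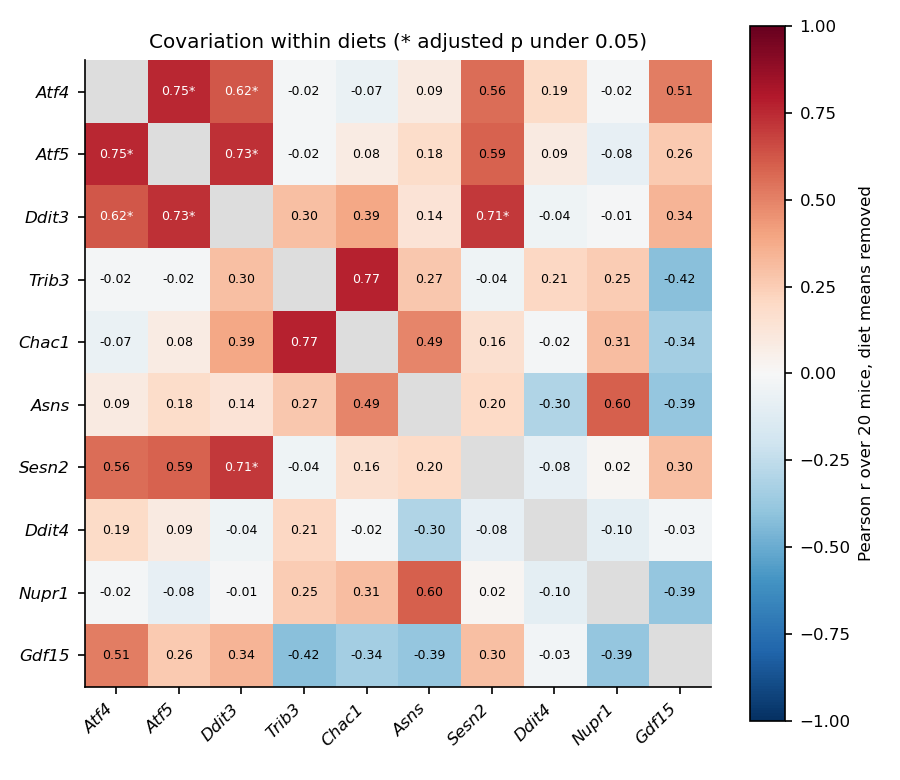
Pearson's r between each pair of the 10 genes over 20 mice, on log2 CPM with the mean of each diet removed (red positive, blue negative). Asterisks mark the 4 pairs with an adjusted permutation p under 0.05, which join Atf4, Atf5, Ddit3, and Sesn2, while Trib3 and Chac1 form a separate high value at 0.77.

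For the 7 members with a mean normalized count over 50, which leaves out Chac1, Asns, and Sesn2, the genes whose levels most resembled theirs over the 20 mice, diets included, were listed among 10159 genes above the same level, as a description without a test. For Atf4 they were Plekho1 (r = 0.789), the chaperone gene Hspa8 (r = 0.778), and Atf5 itself (r = 0.778). For Gdf15 they were Abra (r = 0.898), Ms4a7 (r = 0.875), a gene expressed in macrophages, and Haus8 (r = 0.867). For Nupr1 the closest was F13a1 (r = 0.799), a coagulation factor subunit made by macrophages. Atf5 was closest to Nucb2 (r = 0.861), Ddit3 to Tmed10 (r = 0.858), and Trib3 to Slco2b1 (r = 0.860), and Cdkn1a was among the 3 closest to Ddit4 (r = 0.689). These mice share diet, depth, and tissue composition, so the values describe likeness only.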

How the data were processed

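RNA from the left ventricle of 20 mice was measured with QuantSeq 3′ mRNA libraries and 75 bp reads. The authors aligned reads with BlueBee software and deposited raw counts per Ensembl gene and mouse, without normalization. The submitters' processing notes name GRCm38 and DESeq2 1.22.2, and the annotation and the strand setting of counting are not given in the sources used here. Groups and animal numbers came from the sample labels. Symbols and coordinates came from GENCODE M21 on GRCm38, and promoters from RefSeq on GRCm38.p6.

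Counts were filtered with filterByExpr, scaled by TMM, and fitted for all 4 diets with the quasi-likelihood model of edgeR 4.0.16 in R 4.3.3, with Benjamini-Hochberg adjustment over 13991 genes. Standard errors were derived from the F statistic. P-values of edgeR set each difference against an estimated spread that holds variation between mice and counting error. CPM use TMM library sizes, and correlations used log2 CPM with a prior count of 2 and 100000 permutations within diets. The tests were tried on simulated data. DESeq2 1.42.0 and further alternatives are given in the closing section. Total counts of 12559607 to 23331907 leave counting error large for the scarcest genes. In each related list, up to 4 tested genes with the smallest p in a comparison could be named. For likeness, the 3 closest genes of each member with a mean normalized count over 50 could be named. Members and lists were chosen with earlier results of these data known.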

Additional observations from a re-analysis of the deposited data

Results flagged for a closer look

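Single mice stood apart in 4 of the 40 sets of 5 mice that a gene and a diet form, by a gap to the nearest mouse that was large against the range of the set (Dixon's test), which chance alone gives in about 1 in 20 sets. Ddit4 was 61.4 CPM in HF + LP mouse 4, with a gap of 0.826 of the range. Sesn2 was 1.93 CPM in NP mouse 6 (0.745 of the range), Trib3 was 4.66 CPM in HF mouse 2 (0.724), and Chac1 was 2.00 CPM in NP mouse 8 (0.716), the only low value among them.

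The effect of the high-fat diet differed between low and normal protein at an unadjusted p under 0.05 for Asns, by −1.46 on the log2 scale (standard error 0.44), and for Sesn2, by −1.15 (standard error 0.42). Neither difference passed adjustment over all tested genes with edgeR (adjusted p = 0.614 and 0.668).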

How the results depend on the processing

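Alternatives covered scaling (RLE size factors), the test (DESeq2), the filter (none, or 10 counts or more per library), the thresholds (adjusted p of 0.05, no minimum level), the covariates (the library-name number, or a replicate block on animal number), fits of only the 2 groups compared, and each mouse left out. The sole member called under any of them was Gdf15 in HF compared to NP, with DESeq2 (1 gene). The count of members at an unadjusted p under 0.05 in HF compared to NP was 6 with DESeq2 or RLE scaling, 3 with the replicate block, and 3 to 7 as each mouse was left out, lowest without HF mouse 2. It was 1 to 2 in LP compared to NP (highest without LP mouse 15), 2 to 6 in HF + LP compared to HF (lowest without HF mouse 1 or HF + LP mouse 4), 0 to 3 in HF + LP compared to LP (0 without HF + LP mouse 3), and 2 to 3 for the interaction. Either DESeq2 or RLE scaling gave 5 in HF + LP compared to HF. The library-name number as a covariate left 3 members in that comparison and 1 member in HF + LP compared to LP. At least 10 counts in every library removed Sesn2 and left 1 for the interaction. Of the 45 pairs, 0 to 6 passed as each mouse was left out, with 0 without HF mouse 2 and 1 without NP mouse 6, HF mouse 1, or HF mouse 5, and 1 passed without the 2 extreme mice.

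The animal numbers did not pair the mice: same-numbered mice are different animals, and the correlations of their deviations from the group means ran from −0.482 to 0.13 in HF with NP and from −0.553 to 0.476 in HF + LP with HF. With the replicate block, Atf5 (0.31) and Ddit4 (0.43) left the unadjusted threshold in HF compared to NP. Ddit3 (−0.34) left it and Asns (−0.66) passed it in HF + LP compared to HF. Gdf15 (0.38) and Sesn2 (−0.70) left it, and Chac1 (1.96, edgeR adjusted p = 0.0809) and Trib3 (0.72) passed it, in HF + LP compared to LP. For the interaction, Asns (−0.45) left it, and Chac1 (2.15) and Trib3 (0.87) passed it. A blocked fit of 2 diets rests on the mice whose number occurs in both diets. These are numbers 3, 4, and 5 for HF with NP, and only 2 and 5 for HF + LP with LP. LP and NP share 1 animal number, so no blocked fit was made for them. Medians over all tested genes moved by less than 0.1 between scalings. Depth limits Sesn2, Asns, and Chac1 most, and the cause of the other shifts was not tested.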
